A study of Aethionema arabicum with 12 samples.

Results

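F-box protein genes of Aethionema arabicum, an annual crucifer related to Arabidopsis, were followed in its imbibed seeds. Members were the gene models whose matching Arabidopsis thaliana description names an F-box, leaving out 6 loci of hormone and blue-light signalling, with a mean over the 12 libraries of at least 3 CPM, which are reads scaled by the total of their library. Of 225 models with such a description, 1 was left out by its locus, and 69 of the remaining 224 reached the floor, among 23594 models in the table. The 69 members match 51 Arabidopsis loci. Of the other models, 84 had 0 reads in every library and 71 had reads but stayed under the floor, 25 of which still passed the filter of the test.

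Seeds came from a Cypriot accession (CYP) and a Turkish one (TUR, labelled ES1020), and were held for 23 h under white light (100 µmol per square metre and second) or in darkness. The 4 groups of 3 libraries each were CYP light, CYP dark, TUR light and TUR dark. Whole, intact seeds without germination were frozen, so each library mixes embryo, endosperm and seed coat, and in such bulk samples fewer cells of a type and less RNA per cell cannot be told apart. The labels do not say whether the libraries of a group came from separate mother plants or seed lots, so p-values measure only the spread between these libraries, which may be technical.

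F-box proteins are the substrate-recognising part of SCF ubiquitin ligases. Their F-box motif docks to a SKP1-type adaptor (an ASK protein in Arabidopsis), which joins it to the cullin CUL1 and the RING protein RBX1, while a second domain, such as leucine-rich repeats, kelch repeats or an F-box associated interaction domain, binds the protein to be marked for the proteasome. Plants have unusually large F-box families. A few members perceive hormones or light or act in the cell cycle, and most have no known substrate. In seeds, SCF ligases are best known for removing repressors of germination in gibberellin signalling.

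The libraries held 7099578 to 13953792 counts, which makes 3 counts equal to 0.215 to 0.423 CPM. Levels below are CPM after TMM scaling, a method that corrects for the makeup of each library. Log2 fold changes carry an approximate standard error (SE), which is their size divided by the square root of edgeR's F statistic. It is least reliable where a group has few reads. A gene was called at a Benjamini-Hochberg adjusted p under 0.05 in edgeR's quasi-likelihood test, adjusted over the 15671 genes tested. Across genes, CYP dark library 3 correlated with the other CYP dark libraries at 0.984 and 0.985, and every other pair of libraries of a group at 0.99 or more. Seed reserve genes, a check of the tissue, summed to 9380 to 10100 CPM in CYP light, 5970 to 8080 in CYP dark, 3290 to 6130 in TUR light and 2620 to 4420 in TUR dark. Of the 7 reserve models tested, 4 were higher and 1 lower in CYP than in TUR in each condition. The reserve sum thus moves with accession, as many members do, and in CYP it was also higher in light than in darkness. Its part in the results was not tested.

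Most members were of low or moderate abundance. By mean CPM, 32 of the 69 lay under 10, 31 between 10 and 50, and 6 at 50 or above. Per kilobase of model length (RPKM, computed here from the counts), means ran over members from 0.641 to 75.2, with a median of 6.49. The highest was AA6G00171, a model matched to AT1G05080 of the group with leucine-rich-repeat-type descriptions. Its RPKM was 138, 147 and 129 in CYP light, 74.1, 78.2 and 59 in CYP dark, 57, 46.7 and 55.5 in TUR light and 33.9, 40.2 and 42.5 in TUR dark. Next came AA31G00282 (matched to AT1G76920), with a mean RPKM of 64.8, and AA31G00560 (matched to AT1G33020), with 62.6. AA6G00171 alone held 33.2 to 36.3% of all reads of members in CYP light, 18 to 23.5% in CYP dark, 17.3 to 19.7% in TUR light and 12.9 to 15.5% in TUR dark. The levels of all members together summed to 2012 to 2095 CPM in CYP light, 1685 to 1721 in CYP dark, 1391 to 1495 in TUR light and 1353 to 1413 in TUR dark. Without AA6G00171 the sums were 1335 to 1380, 1303 to 1390, 1150 to 1201 and 1178 to 1193 CPM in CYP light, CYP dark, TUR light and TUR dark, so that CYP libraries still lay above TUR libraries, while light and dark libraries of an accession overlapped.

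The members just inside the floor were AA60G00185, AA57G00231 and AA39G00422, with means of 3.46, 3.41 and 3.24 CPM. Just outside it were AA9G00026, AA102G00095 and AA40G00072, with 2.98, 2.83 and 2.79 CPM. Models without any read made up 37.5% of the F-box candidates, against 20.1% (4745) of all models in the table. By their descriptions, 26 members are named only as F-box family proteins, 16 carry an F-box associated interaction domain, 15 an RNI-like, FBD or leucine-rich repeat domain, 3 a DUF295 domain, 3 a SNF2 helicase domain and 2 kelch repeats. The remaining 4 have another name.

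Accession differences were many in both directions. In darkness 24 members were higher and 12 lower in CYP than in TUR, and 33 were not called. That is 52.2% of members, against 44.5% of all genes tested (22.4% higher, 22.1% lower) and 45.2% of genes with at least 3 CPM on average. In light 27 were higher, 15 lower and 27 not called, which is 60.9%, against 52.7% of all genes (24.9% higher, 27.8% lower) and 54% of genes with at least 3 CPM. The median log2 fold change of members was 0.11 in darkness and 0.02 in light, beside 0.00 and -0.02 over all genes tested. The floor bears on these shares, since 9 members passed it only through the accession where they were high. Under 3 CPM in CYP were 5 of them (AA10G00277, AA160G00006, AA46G00139, AA6G00110 and AA19G00435). In TUR they were 4 (AA31G00313, AA25G00140, AA39G00422 and AA57G00231). The accession differences of these members are therefore favoured by the rule. Of the 60 members at or over 3 CPM in both accessions, 20 were higher and 7 lower in darkness (45%), and 24 and 10 in light (56.7%). At least 2-fold differences were called for 6 of these 60 in darkness (10%) and 8 in light (13.3%), against 13.1% and 16.5% of all genes tested. They were called for 9 and 6 of the members under the floor in 1 accession, which its rule favours. The background genes were not held to the floor in each accession, a filter that removes some strong differences. The shares of the 60 members and of the background are therefore of unlike sets.

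A pair of members was near the limit of detection in TUR. AA31G00313, matched to AT1G33020 and carrying an associated interaction domain, had 11.4, 9.85 and 10.4 CPM in CYP light, 13.7, 10.1 and 19.2 in CYP dark, 0, 0 and 0 in TUR light and 0.0769, 0 and 0 in TUR dark. All 6 CYP libraries thus lay far above all 6 TUR libraries, with 747 reads in CYP and 1 in TUR. In darkness the 347 CYP reads against 1 TUR read give a ratio of 484 (95% interval 86.3 to 19200, counting error only), and the 1 read fell in TUR dark library 1. In light the level was at least 116-fold higher in CYP, taking 3 reads over the TUR light group as the floor.

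AA25G00140, matched to AT5G56400 of the FBD and leucine-rich-repeat type, showed the same kind of difference. It had 11.7, 10.3 and 10.5 CPM in CYP light and 3.5, 3.71 and 5.02 in CYP dark, against 0.075, 0.125 and 0 in TUR light and 0, 0 and 0 in TUR dark. Over all libraries it had 509 reads in CYP and 2 in TUR. The CYP level was at least 46.1-fold higher in darkness (3 reads as the floor), and in light the ratio was 179 (95% interval 49.2 to 1480). Both models passed the floor only through their CYP reads. At most 3 TUR reads were found for these 2 of the 69 members (2.9%) and for 6 (0.0441%) of 13594 genes with at least 3 CPM on average. The 13594 genes include the members, so these 2 models are among the 6. At most 3 CYP reads were found for 0 of either set. The accession behind the gene models is not stated. Whether reads of both accessions map equally well was not tested, here or for the models with few CYP reads below.

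**Figure D1:**
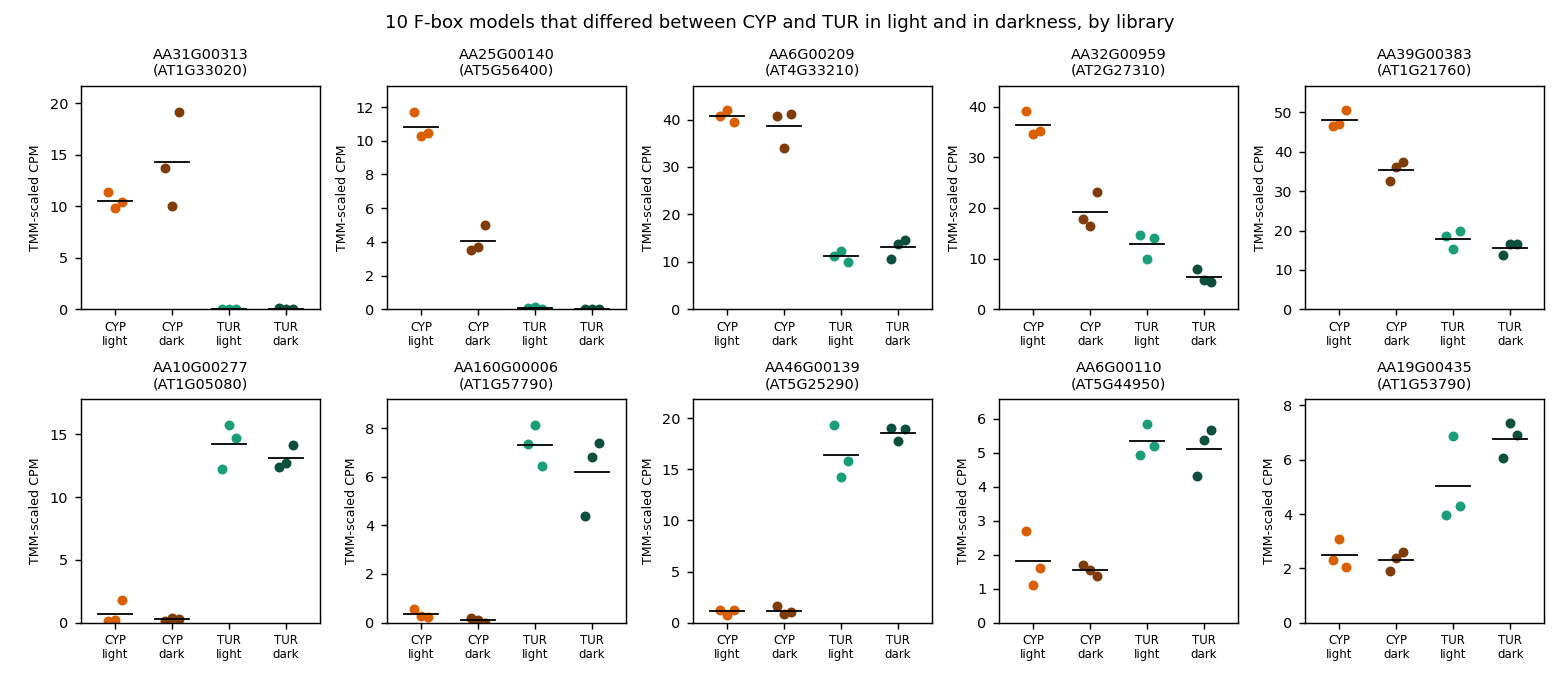
TMM-scaled CPM of 10 F-box models in each library (points) with the group mean (line), on linear axes from 0, for CYP light, CYP dark, TUR light and TUR dark. The 5 models of the upper row are higher in CYP and the 5 of the lower row lower in CYP; AA31G00313 and AA25G00140 lie at or near 0 in TUR, and AA10G00277, AA160G00006 and AA46G00139 stay under 2 CPM in CYP.

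Other members were higher in CYP with well-measured levels in both accessions. AA6G00209 matches AT4G33210, which in Arabidopsis is SLOMO (SLOW MOTION), an F-box protein needed for auxin balance and the timing of organ initiation at the shoot meristem. It had 40.8, 42 and 39.6 CPM in CYP light and 40.6, 34 and 41.2 in CYP dark, against 11.3, 12.4 and 10.1 in TUR light and 10.7, 13.8 and 14.7 in TUR dark. No CYP library overlapped a TUR library, and the log2 fold change was 1.57 (SE 0.13) in darkness and 1.87 (SE 0.13) in light. Another member of the same match, AA380G00002, was more abundant, with a mean RPKM of 16.2 against 2.36 for AA6G00209. It was not called between accessions, so the difference of AA6G00209 does not stand for all models of this match. AA32G00959, matched to AT2G27310, was higher in CYP by 1.47 (SE 0.16) in light and 1.56 (SE 0.18) in darkness. Its levels were 39.2, 34.5 and 35.2 CPM in CYP light, 17.9, 16.4 and 23.1 in CYP dark, 14.6, 9.85 and 14.1 in TUR light and 8, 5.85 and 5.35 in TUR dark. Every CYP library exceeded every TUR library, and within each accession light exceeded dark.

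FBP7 (AA39G00383, AT1G21760), known in Arabidopsis for a role in translation under heat and cold stress, had 48.1 ± 2.28 CPM in CYP light and 35.4 ± 2.47 in CYP dark, against 17.9 ± 2.44 in TUR light and 15.7 ± 1.6 in TUR dark (SD, n = 3). Its log2 fold change between accessions was 1.17 (SE 0.12) in darkness and 1.41 (SE 0.11) in light. AA539G00003, matched to AT1G08710 (SKIP24, found in Arabidopsis as an ASK-interacting protein), was higher in CYP by 1.21 (SE 0.14) in darkness and 0.94 (SE 0.14) in light. AA2G00212, matched to AT1G51550 with kelch repeats, was higher by 1.48 (SE 0.21) and 1.09 (SE 0.20), and AA60G00159, matched to AT3G12350, by 1.14 (SE 0.14) and 1.16 (SE 0.14), in darkness and in light. In each of these 4 members the CYP and TUR libraries did not overlap in either condition. Lack of overlap was part of the rule by which members were named, so here and elsewhere it is no added support. AUF2 (AA39G00422, AT1G22220), of a pair of auxin-induced F-box proteins linked to auxin transport in Arabidopsis roots, had 4.62, 4.71 and 4.68 CPM in CYP light and 3.3, 5.03 and 3.95 in CYP dark, against 3.07, 2.49 and 1.97 in TUR light and 2.15, 1.23 and 1.94 in TUR dark. It was called higher in CYP in both conditions, with edgeR adjusted p-values of 0.00158 in darkness and 0.00431 in light. With a TUR mean of 2.2 CPM it passed the floor only through CYP, the direction of these calls.

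The most abundant member, AA6G00171, was also higher in CYP. It had 714, 760 and 668 CPM in CYP light and 383, 404 and 305 in CYP dark, against 294, 241 and 287 in TUR light and 175, 208 and 220 in TUR dark. The groups did not overlap between accessions in either condition, and the log2 fold change was 1.38 (SE 0.12) in light and 0.86 (SE 0.12) in darkness. Called in both conditions too was AA19G00197, matched to AT5G03970, with a log2 fold change of 1.07 (SE 0.15) in light and 0.65 (SE 0.14) in darkness. SKP2A (AA39G00359, AT1G21410), which in Arabidopsis promotes cell division by marking the repressor E2FC, had 10.6, 8.13 and 10.2 CPM in CYP light and 7.09, 6.82 and 9.27 in CYP dark, against 5.1, 4.12 and 5.44 in TUR light and 4.23, 4.24 and 6.13 in TUR dark. Its difference was 0.96 (SE 0.19) in light and 0.64 (SE 0.20) in darkness. The dark call of SKP2A ended without TUR dark library 1, TUR dark library 2 or CYP dark library 3, with edgeR adjusted p-values of 0.0688, 0.0651 and 0.0598.

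The members lower in CYP were led by 3 models with few CYP reads. These, and AA6G00110 and AA19G00435 given below, passed the floor only through TUR, which favours this direction. AA10G00277, like AA6G00171 matched to AT1G05080, had 0.159, 0.171 and 1.83 CPM in CYP light and 0.0999, 0.359 and 0.304 in CYP dark, against 12.2, 15.7 and 14.7 in TUR light and 12.4, 12.7 and 14.1 in TUR dark. Its log2 fold change was -5.70 (SE 0.52) in darkness and -4.20 (SE 0.37) in light. CYP light library 3 stood above the other CYP libraries, and without it the light value was -6.31. These models of the same Arabidopsis match therefore differed in opposite directions between the accessions.

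AA160G00006, matched to AT1G57790, had 16 reads in CYP and 472 in TUR. Its levels were 0.557, 0.257 and 0.219 CPM in CYP light and 0.2, 0.12 and 0 in CYP dark, against 7.35, 8.11 and 6.42 in TUR light and 4.38, 6.79 and 7.37 in TUR dark. In darkness, 3 CYP reads, 2 of them in CYP dark library 1, against 224 TUR reads give a level 53.5 times higher in TUR (95% interval 18.1 to 261), and in light the log2 fold change was -4.36 (SE 0.35). AA46G00139, of the DUF295 type and matched to AT5G25290, had 1.27, 0.771 and 1.24 CPM in CYP light and 1.6, 0.838 and 1.06 in CYP dark, against 19.4, 14.2 and 15.8 in TUR light and 19.1, 17.8 and 18.9 in TUR dark. All 6 CYP libraries lay below all 6 TUR libraries, and the log2 fold change was -3.95 (SE 0.22) in darkness and -3.89 (SE 0.21) in light.

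AA6G00110, matched to AT5G44950, had 1.81 ± 0.815 CPM in CYP light and 1.54 ± 0.165 in CYP dark, against 5.34 ± 0.47 in TUR light and 5.11 ± 0.714 in TUR dark (SD, n = 3). It was lower in CYP, with log2 fold changes of -1.70 (SE 0.29) in darkness and -1.54 (SE 0.26) in light. For AA19G00435, matched to AT1G53790 with an associated interaction domain, the values were -1.58 (SE 0.25) and -0.99 (SE 0.24). Neither model showed an overlap of libraries between accessions. AA78G00017, matched to AT3G23880, had 21.4, 20.9 and 18.5 CPM in CYP light and 37.3, 35.3 and 30.4 in CYP dark, against 49.9, 53.3 and 38.5 in TUR light and 51.8, 55.9 and 52.4 in TUR dark. CYP light libraries were the lowest of all, and the log2 fold change was -1.22 (SE 0.12) in light and -0.63 (SE 0.12) in darkness. AA31G00282, the second most abundant member per length, had 60.8, 59.1 and 51.3 CPM in CYP light and 54.2, 62.5 and 65.4 in CYP dark, against 73, 73.2 and 80.3 in TUR light and 92.4, 104 and 90.6 in TUR dark. It was lower in CYP in both conditions, with log2 fold changes of -0.66 (SE 0.10) in darkness and -0.41 (SE 0.10) in light. FBS4 (AA30G00115, AT4G35930), of a small family named for stress-induced F-box proteins, was lower in CYP, with log2 fold changes of -0.51 (SE 0.12) in darkness and -0.86 (SE 0.12) in light. AA54G00420, matched to AT1G30200, was called in darkness (-0.63, SE 0.19), and that call ended without TUR dark library 1 (edgeR adjusted p = 0.0518). AA65G00138, matched to AT1G10780, was called in light (-0.79, SE 0.17).

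The accession difference was measured in separate libraries in darkness and in light. Whether the dark and light seeds of an accession came from separate seed lots is not stated. Agreement between the conditions is therefore not shown to be an independent repeat. A total of 32 members were called in the same direction in both conditions, 22 higher and 10 lower in CYP, and none in opposite directions. They are 88.9% of the 36 calls in darkness and 76.2% of the 42 in light, beside 81.7% and 68.8% for all genes tested. Members that passed the floor only through 1 accession are included, here and in the correlations. For them the rule favours a difference of the same direction in both conditions. Leaving out the 3 members with at most 3 reads in a group, the log2 fold changes of both conditions had a Pearson correlation of 0.95 and a Spearman correlation of 0.90 over 66 members, given as a description. A difference called in 1 condition alone is not shown to depend on light. AA57G00231, matched to AT2G02240 (MEE66, named in Arabidopsis for arrested embryos in a mutant screen), is an example, with a log2 fold change of 1.09 (SE 0.26) in darkness and 0.20 (SE 0.20) in light. The difference between these values had an edgeR adjusted p of 0.211.

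**Figure D2:**
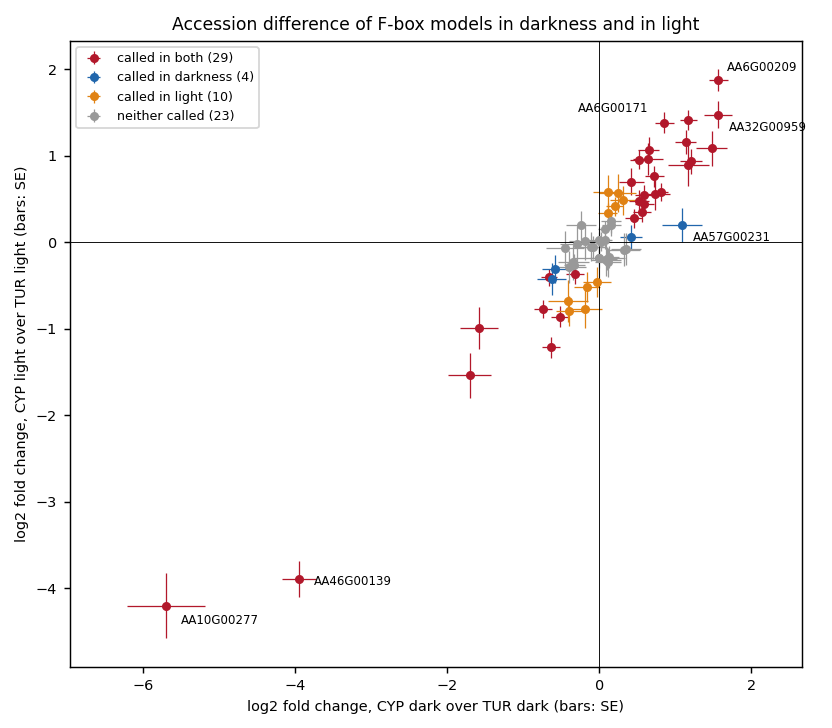
Log2 fold change of CYP over TUR in darkness (x axis) and in light (y axis) for 66 members, with SE bars and colours for the comparisons in which each was called. AA31G00313, AA25G00140 and AA160G00006, which had at most 3 reads in a group, are not drawn; most points lie near the diagonal, and AA10G00277 and AA46G00139 stand apart at the lower left.

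Several members share an Arabidopsis match. Such models are 29 members at 11 loci, while 40 members have a match of their own. At 2 of these loci, AT1G33020 and AT1G05080, some models were called higher and others lower in CYP, at 6 the accession calls went in 1 direction, and at 3 no model was called. Differences between models of a locus were not tested. How counting treated reads that fit near-identical models is not stated in the labels or the table, so values of such models are uncertain to that extent. AT1G33020 is the match of 34 models in the table, of which 14 had 0 reads and 6 are members. Next to AA31G00313, AA31G00560 was higher in CYP, with 79, 72.5 and 77.5 CPM in CYP light and 100, 107 and 111 in CYP dark, against 55.7, 42.7 and 54.3 in TUR light and 65.2, 60.1 and 56.7 in TUR dark. Its libraries did not overlap between accessions, with log2 fold changes of 0.81 (SE 0.10) in darkness and 0.58 (SE 0.10) in light. AA51G00024 was lower in CYP in darkness (-0.59, SE 0.16) and AA30G00047 in light (-0.77, SE 0.22). AA90G00015 was called higher in light (0.57, SE 0.22), a call that ended without any 1 of 4 of the libraries compared, and AA36G00013 was called in neither condition.

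**Figure D3:**
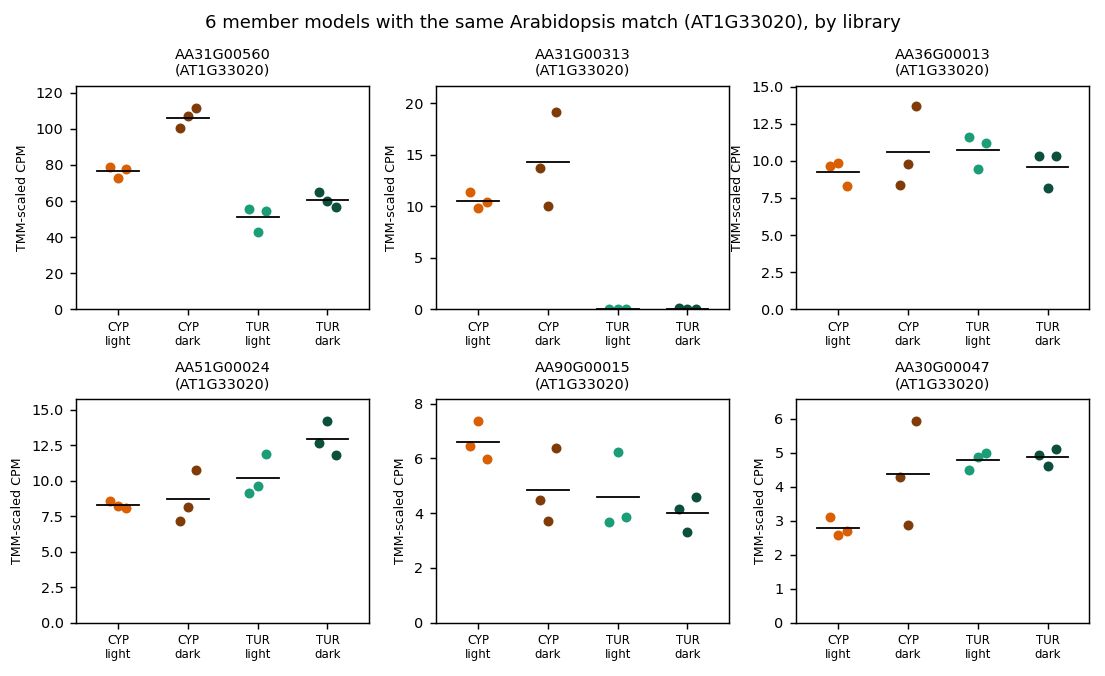
TMM-scaled CPM of the 6 members matched to AT1G33020 in each library (points) with the group mean (line), each panel with its own linear axis from 0. AA31G00313 is at or near 0 in TUR and AA31G00560 is higher in CYP, and the group means of the other 4 lie closer together.

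Among the 3 members matched to AT4G33210 (SLOMO), AA6G00209, described above, was higher in CYP in both conditions. AA6G00176 was called in light only (0.58, SE 0.20), a call that ended without TUR light library 3 or CYP light library 1. AA380G00002, the most abundant of the 3, was not called, with 0.07 (SE 0.10) in darkness and 0.03 (SE 0.10) in light. AA46G00139 and AA22G00014 share the match AT5G25290. The log2 fold change of AA22G00014 was -0.16 (SE 0.17) in darkness, not called, and -0.52 (SE 0.17) in light, called, although that call ended without TUR light library 1, TUR light library 2 or CYP light library 3. For AT3G54460, a SNF2-type helicase with an F-box, none of its 3 models was called in any comparison, with accession values between -0.19 and 0.33.

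A list of F-box loci with a known role held 50 loci. Of these, 34 have a model in the table, and 8, with 9 models, are members. The others of the 34 have a description that does not name an F-box or a level under the floor. The list is not complete and leaves out, for example, the loci AT4G33210 (SLOMO) and AT2G16365 (PCH1). Besides FBP7, AUF2, SKP2A and FBS4, FBW2 (AA9G00206, AT4G08980), which in Arabidopsis targets the RNA silencing protein AGO1, was higher in CYP by 0.56 (SE 0.12) in darkness and 0.35 (SE 0.11) in light. CPR1 (AT4G12560), which keeps immune receptors at low levels in Arabidopsis, has 2 models. AA57G00444 was called higher in light (0.34, SE 0.12), a call that ended without TUR light library 1 or CYP light library 3, and AA6G00301 was not called (0.24, SE 0.13). KFBCHS (AA39G00534, AT1G23390), the kelch protein that marks chalcone synthase for turnover in Arabidopsis, had 22.4, 19.7 and 19.7 CPM in CYP light, 16.8, 15.6 and 19.6 in CYP dark, 18, 16.8 and 18.9 in TUR light and 15.3, 17 and 14.2 in TUR dark. It was not called in any comparison, and its accession values were 0.16 (SE 0.12) in darkness and 0.20 (SE 0.12) in light. AUF1 (AA31G00166, AT1G78100), the partner gene of AUF2, was likewise not called, with -0.34 (SE 0.20) and -0.23 (SE 0.20). Over all 37 tested models of the listed loci, members included, 13 were higher and 6 lower in CYP in darkness (51.4%), and 14 and 8 in light (59.5%), near the 44.5% and 52.7% of all genes tested.

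Fewer members were called in light against dark. In CYP 10 members were higher and 4 lower in light than in darkness, 20.3% of members, against 24.9% of all genes tested (10.6% higher, 14.3% lower) and 26.6% of genes with at least 3 CPM. In TUR 8 were higher and 3 lower, 15.9%, against 18.4% of all genes (9.17% higher, 9.22% lower) and 19.4% of genes with at least 3 CPM. The shares called were near or under the background in both accessions. The medians over members were 0.00 in CYP and 0.05 in TUR, beside -0.01 and 0.00 over all genes. Without TUR light library 1 the TUR calls numbered 7, of which 5 were higher, and without TUR light library 3 also 5 were higher. A total of 9 members changed in the same direction in both accessions, 8 higher and 1 lower, which is 64.3% of the CYP calls and 81.8% of the TUR calls, beside 45.4% and 61.6% for all genes. Over the same 66 members the light values had a Pearson correlation of 0.68 and a Spearman correlation of 0.57 between accessions, given as a description. Summed levels of the seed coat list were 19 to 22.2 CPM in CYP light, 6.38 to 8.73 in CYP dark, 17.1 to 19.4 in TUR light and 8.92 to 10.7 in TUR dark, over 2 tested models. The green tissue list, also of 2 tested models, summed to 7.72 to 9.87, 1.06 to 1.7, 16 to 17.5 and 1.04 to 2.09 CPM in the same order of groups. The endosperm list summed to 192 to 219, 294 to 301, 180 to 206 and 242 to 252 CPM and the embryo axis list to 231 to 241, 299 to 356, 244 to 301 and 275 to 309 CPM, again in that order. All of these sums but that of the embryo axis in TUR separated light from dark, and the seed reserve sum given earlier did so in CYP only. The endosperm and seed coat sums also separated the accessions in darkness, and the green tissue and embryo axis sums did so in light. The part of these sums in the light and accession values was not tested.

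AA123G00015 had the smallest adjusted p of all members for light against dark in both accessions. It matches AT2G16365, described as an F-box protein and known in Arabidopsis as PCH1, which binds phytochrome B and stabilises its active form. It had 25.8, 22 and 25.2 CPM in CYP light against 10.9, 11 and 10.3 in CYP dark, and 44.2, 41.4 and 39.2 in TUR light against 19.9, 16.5 and 17.4 in TUR dark. Light and dark libraries did not overlap in either accession, and it rose in light by 1.18 (SE 0.12) in CYP and 1.21 (SE 0.11) in TUR on the log2 scale. At the same time it was lower in CYP than in TUR, with log2 fold changes of -0.77 (SE 0.10) in light and -0.74 (SE 0.12) in darkness. The most abundant member, AA6G00171, whose values are given above, rose by 0.97 (SE 0.12) in CYP and 0.45 (SE 0.12) in TUR. Its TUR call ended without TUR dark library 1, TUR light library 1 or TUR light library 3, with edgeR adjusted p-values of 0.101, 0.0853 and 0.0796.

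Among the 3 members matched to AT5G27920, 2 rose in light. AA40G00129 had 13.5, 14.1 and 14.1 CPM in CYP light against 3.1, 8.14 and 4.1 in CYP dark, and 13.6, 16.6 and 13.8 in TUR light against 6, 6.6 and 8.14 in TUR dark. The log2 fold change was 1.45 (SE 0.23) in CYP and 1.07 (SE 0.21) in TUR, with no overlap of light and dark libraries. AA40G00130 rose by 1.07 (SE 0.19) in CYP and 0.64 (SE 0.18) in TUR, and its TUR call ended without TUR dark library 2 or 3 or TUR light library 1 or 3. AA40G00136 was not called, with -0.34 (SE 0.13) in CYP and -0.04 (SE 0.13) in TUR. None of the 3 was called between accessions.

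AA57G00231, the MEE66 match, had 4.94, 5.91 and 4.24 CPM in CYP light against 3.1, 2.99 and 2.58 in CYP dark, and 4.5, 4.24 and 4.31 in TUR light against 1.15, 1.23 and 1.71 in TUR dark. It rose by 0.78 (SE 0.22) in CYP and 1.66 (SE 0.24) in TUR, and the CYP call ended without CYP light library 2 (edgeR adjusted p = 0.0555). AA32G00959 rose by 0.94 (SE 0.16) and 1.02 (SE 0.18), and AA39G00557, matched to AT1G23780, by 0.48 (SE 0.12) and 0.52 (SE 0.12), in CYP and in TUR. Called higher in both accessions too was AA8G00017, with 0.69 (SE 0.21) in CYP and 0.58 (SE 0.19) in TUR, although each of these calls ended without some single libraries. AA25G00140, near 0 in TUR, rose in CYP by 1.43 (SE 0.21), and FBP7 rose there by 0.45 (SE 0.11).

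FBS4 was the only member called lower in light in both accessions. It had 13.7, 15.6 and 11.9 CPM in CYP light against 23.1, 25 and 25.5 in CYP dark, and 23.6, 22.8 and 27.7 in TUR light against 37.5, 35.3 and 31.9 in TUR dark. CYP light was thus the lowest group and TUR dark the highest, and the log2 fold change was -0.84 (SE 0.13) in CYP and -0.49 (SE 0.12) in TUR. In CYP, AA78G00017 (-0.77, SE 0.13) and AA31G00560 (-0.47, SE 0.10) were also lower in light, as was AA539G00003 (-0.38, SE 0.14). That last call was near the threshold (edgeR adjusted p = 0.0482), missed it in DESeq2 (adjusted p = 0.0506), and ended when any 1 of the CYP libraries other than CYP dark library 3 was left out. In TUR, AA19G00197 (-0.64, SE 0.15) and AA31G00282 (-0.34, SE 0.10) were lower in light, the second of which lost its call without TUR dark library 2 or TUR light library 1 or 2.

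**Figure D4:**
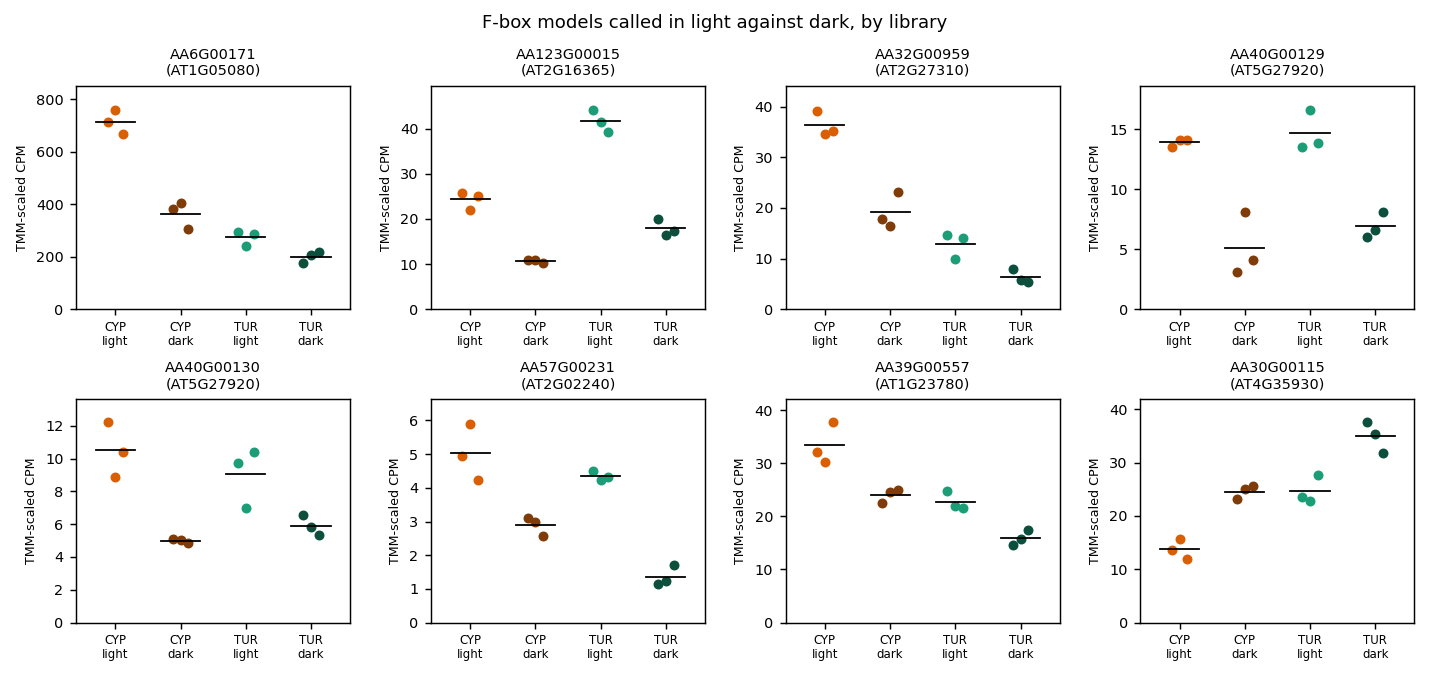
TMM-scaled CPM of 8 members called in light against dark, in each library (points) with the group mean (line), on linear axes from 0. The first 7 panels are models that rose in both accessions, and AA30G00115 (FBS4) fell in both.

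No member was called for a difference between accessions in its light response. In the test of the CYP response minus the TUR response 0 of 69 were called by edgeR and 0 by DESeq2, while 4 had an unadjusted p under 0.05, and 2.24% of all genes tested were called by edgeR. The smallest edgeR adjusted p was 0.0867, for AA78G00017, with a difference of -0.59 (SE 0.17). It was called without TUR light library 3 (-0.68, edgeR adjusted p = 0.0361) or CYP dark library 3 (-0.66, edgeR adjusted p = 0.0282). AA6G00171 followed with 0.52 (SE 0.17, edgeR adjusted p = 0.129), AA6G00059 with 0.43 (SE 0.16) and AA57G00231 with -0.89 (SE 0.33). A p over the threshold does not show that the responses were alike.

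**Figure D5:**
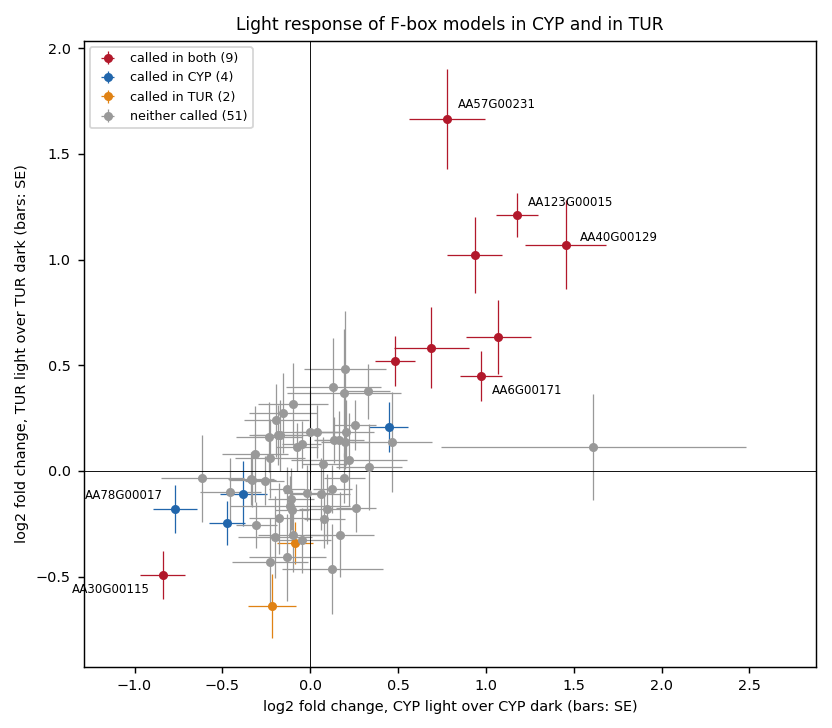
Log2 fold change of light over dark in CYP (x axis) and in TUR (y axis) for 66 members, with SE bars and colours for the accessions in which each was called. AA31G00313, AA25G00140 and AA160G00006, which had at most 3 reads in a group, are not drawn; the 8 members that rose in both accessions lie at the upper right and AA30G00115 at the lower left.

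The partners of F-box proteins were also measured. A list of 42 loci held SCF subunits, their NEDD8-type (RUB) modification and the COP9 signalosome, which removes it. It also held the exchange factor CAND1 and the chaperone partners SGT1A and SGT1B. Of its models, 24 were tested. In darkness 3 were higher and 4 lower in CYP, and in light 4 and 2, which is 29.2% and 25% of the models, under the 44.5% and 52.7% of all genes tested. ECR1 (AA40G00203), part of the enzyme that activates RUB, had 146, 139 and 157 CPM in CYP light and 140, 126 and 148 in CYP dark, against 85.7, 89.2 and 90.8 in TUR light and 98.7, 93.5 and 89.9 in TUR dark. It was higher in CYP by 0.74 (SE 0.09) in light and 0.55 (SE 0.09) in darkness. A model of the SKP1-like gene ASK21 (AA61G00506) was lower in CYP, with -0.77 (SE 0.12) in light and -0.92 (SE 0.13) in darkness, and the adaptor ASK2 (AA3G00173) was higher in CYP in light (0.42, SE 0.11). CAND1 (AA53G00713), which exchanges F-box proteins on the cullin, was lower in CYP in darkness (-0.25, SE 0.09). The cullin CUL1 (AA32G00285) was not called between accessions (0.09 in light, SE 0.09, and 0.09 in darkness, SE 0.09). In light against dark 4 of the 24 were higher in CYP seeds and 2 in TUR seeds (16.7% and 8.33%, against 24.9% and 18.4% of all genes tested), and none was lower. CUL1 rose by 0.30 (SE 0.09) in CYP and 0.30 (SE 0.09) in TUR.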

How the data were processed

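Poly(A) RNA libraries were made with the Lexogen SENSE mRNA kit and sequenced on an Illumina HiSeq instrument, per the labels' protocols and design text. Per the file headers, the deposited table gives raw counts and RPKM by library for 23594 gene models, with the length in bases and the Arabidopsis match and description for 21079 of them. Bowtie2 2.2.3, HTSeq 0.6.1, Trimmomatic, bcl2fastq 2.17.1 and TAIR10 are named in the submitters' processing notes without their roles. The sources used here give neither the accession and release of the models nor the strand setting. Deposited RPKM of CYP libraries equals count over length and total in 100% of genes (within 1%), and of TUR libraries in 0.357 to 0.474%, so deposited RPKM values were not used.

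Raw counts as deposited went into edgeR 4.0.16 (R 4.3.3) with TMM scaling: genes with at least 1 CPM in at least 3 libraries, 4 group means in 1 fit of 12 libraries, the quasi-likelihood test in 5 comparisons, Benjamini-Hochberg adjustment over 15671 genes and a threshold of 0.05. RPKM given here are TMM-scaled CPM per kilobase. Total counts are given with the results. The scripts were tested on simulated data. Alternatives were RLE and upper quartile scaling, DESeq2 1.42.0, limma 3.58.1 on log2(RPKM + 1) and log2(RPKM + 5) from the counts, other filters and member floors, only the groups compared, a replicate block, and each library left out.

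The members and gene lists were chosen with earlier results of these data known. Named are, per accession comparison, up to 10 called members in each direction without overlap of libraries, and up to 6 per light comparison. The rule adds up to 5 per direction for the difference, members of the list of known F-box loci, those with at most 3 reads in an accession, the 3 highest by RPKM and the 3 rows on each side of the floor. Other members named (AA8G00017, AA6G00059 and models sharing an Arabidopsis match) were chosen after their values were seen.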

Additional observations from a re-analysis of the deposited data

How the results depend on the processing

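Of 342 counts of called members over all comparisons and alternatives, 323 were within 1.5 times the reported count and 19 were not. A member floor of 10 CPM leaves 37 members. Between accessions 22 of them were called in darkness (6 lower) and 22 in light (17 higher, 5 lower). For light against dark 6 were higher in CYP and 7 were called in TUR (5 higher). Fewer members of itself means fewer calls, and shares at this floor were not compared. Limma on log2(RPKM + 1) or log2(RPKM + 5) called 1 member for the difference of light responses (1 higher), AA25G00140, with 1.09 and 0.61, where edgeR gave -1.20 (SE 0.98, edgeR adjusted p = 0.665) on 0 dark reads in TUR. In edgeR the light response of this model was 1.43 (SE 0.21) in CYP and 2.63 (SE 1.45) in TUR, the second resting on 2 light reads and 0 dark reads. Limma values are on the log2(value + pseudocount) scale, and the cause of the changed sign was not tested. Leaving out 1 library at a time gave 7 to 12 calls in TUR light against dark (5 to 9 higher) and 0 to 1 for the difference (0 to 1 lower). Over the libraries compared, 31 of the 36 calls in darkness, 32 of 42 in light, 11 of 14 in CYP and 7 of 11 in TUR stood whichever library was left out. Among 1612 alternative values of the 77 called values of named members, 1578 stayed called, 34 missed the threshold and 0 changed sign. Most named members were picked as the largest calls without overlap of libraries in these data, which favours their staying called. Some of the alternatives leave out a library that is not in the comparison.

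Libraries with the same replicate number did not deviate together throughout (correlations of -0.44 to 0.26). In the light comparison in CYP the correlations were all positive, though weak (0.08, 0.1 and 0.26). In the accession comparisons in darkness and in light and the light comparisons in CYP and TUR, 0, 2, 4 and 2 of 6 libraries correlated best with their own number. With the replicate number as a block 36, 41, 13, 10 and 0 members were called, the last for the difference of light responses. Counts limit members near 3 CPM most, and intervals and floors cover counting error only.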
